A study of Mus musculus with 9 samples.

Results

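Lhx2, Ldb1, Emx2 and the 4 Ebf genes (Ebf1, Ebf2, Ebf3 and Ebf4) encode transcription factors and a cofactor that act at olfactory receptor enhancers and promoters. These 7 genes were taken by name from the 24421 genes of the count table, and their RNA was followed in 9 libraries of whole main olfactory epithelium (MOE) from mice at postnatal day 14, labelled C57BL/6. The mice carried the wild-type allele (WT), 1 deleted copy (het) or 2 deleted copies (homo) of TAAR enhancer 2, a regulatory element in the cluster of trace amine-associated receptor (Taar) genes, with 3 libraries for each genotype. The deletion came from a single line made by CRISPR-Cas9, the mice were littermates of both sexes, and no allele other than the deletion was given for any group. The study describes its mouse lines together as on mixed C57BL/6J and 129 backgrounds, and the zygotes injected for the deletion were C57BL/6J. RNA came from the whole tissue, so a change in the number of cells of a type and a change in RNA per cell cannot be told apart.

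In the olfactory epithelium most mature sensory neurons express a single receptor gene each, chosen from the large odorant receptor family or the small Taar family. Some express receptors of other families. Enhancers near the receptor clusters take part in this choice. Lhx2, a LIM-homeodomain factor, and the Ebf proteins (also called Olf-1/EBF or O/E factors) bind composite sites in such enhancers, and Ldb1 is an adaptor without DNA binding of its own that binds LIM domains and bridges distant sites. Emx2 is a homeodomain factor needed for normal expression of many odorant receptors.

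The members lie on 5 chromosomes in GRCm38 and none is on chromosome 10, where the Taar genes are. Lhx2 (chr2:38339281-38369733) and Ebf4 (chr2:130295169-130370481) are on the plus strand of chromosome 2, and Ldb1 (chr19:46031570-46045214, minus strand) and Emx2 (chr19:59458372-59465357, plus strand) are on chromosome 19. Ebf1 (chr11:44617317-45008091, plus strand), Ebf2 (chr14:67233292-67430918, plus strand) and Ebf3 (chr7:137193673-137314445, minus strand) are each on a chromosome of their own. All 50-base windows of the exons of each gene were unique among the annotated transcripts (100%). Genes on the opposite strand overlap 6 of the 7 members, and the strand setting of the read counting was not stated. The antisense gene Emx2os had 23.8 to 29.9 CPM (read counts scaled to the depth of each library with edgeR's TMM factors) over the 9 libraries and Pprc1, opposite Ldb1, had 32.5 to 50.1 CPM.

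Promoter windows from RefSeq (GRCm38.p6, 250 bases before to 50 after a transcript start) were available for 6 of the 7 members, 10 windows in all, with none for Ebf2. They were searched on both strands for TAATTA, a core bound by homeodomain proteins such as Lhx2 and Emx2, and for CCCNNGGG, the core of the Ebf site. Both motifs read the same on both strands. The 4 windows with a match are shown because they hold the letters that members of the group recognise, and capitals mark the match.
Emx2 promoter, chr19:59458440-59458739, plus strand: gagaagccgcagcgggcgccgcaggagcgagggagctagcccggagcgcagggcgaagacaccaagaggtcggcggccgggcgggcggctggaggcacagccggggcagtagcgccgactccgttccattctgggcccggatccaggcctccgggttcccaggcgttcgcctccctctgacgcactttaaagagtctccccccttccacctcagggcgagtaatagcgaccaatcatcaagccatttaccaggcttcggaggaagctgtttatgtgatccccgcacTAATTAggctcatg
Lhx2 second promoter, chr2:38351058-38351357, plus strand: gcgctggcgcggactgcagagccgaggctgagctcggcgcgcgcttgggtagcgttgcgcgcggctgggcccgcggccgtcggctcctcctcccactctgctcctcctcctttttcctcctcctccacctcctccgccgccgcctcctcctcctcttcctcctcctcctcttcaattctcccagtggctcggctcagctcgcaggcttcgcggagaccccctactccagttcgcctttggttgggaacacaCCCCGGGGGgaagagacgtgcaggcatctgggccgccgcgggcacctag
Ldb1 second promoter, chr19:46039572-46039871, minus strand: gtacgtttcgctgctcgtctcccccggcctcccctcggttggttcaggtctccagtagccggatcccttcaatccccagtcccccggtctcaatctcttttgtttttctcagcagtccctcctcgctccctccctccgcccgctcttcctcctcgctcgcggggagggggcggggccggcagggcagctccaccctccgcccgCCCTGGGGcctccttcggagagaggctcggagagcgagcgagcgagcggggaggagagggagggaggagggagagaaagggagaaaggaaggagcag
Ebf3 promoter, chr7:137314396-137314695, minus strand: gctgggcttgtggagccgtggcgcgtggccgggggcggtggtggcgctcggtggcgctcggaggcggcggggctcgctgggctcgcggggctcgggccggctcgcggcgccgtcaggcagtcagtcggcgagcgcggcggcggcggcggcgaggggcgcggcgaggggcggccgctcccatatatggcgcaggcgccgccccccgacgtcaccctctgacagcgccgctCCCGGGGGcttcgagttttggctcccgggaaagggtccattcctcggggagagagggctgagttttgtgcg

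The Emx2 window held TAATTA, starting 36 bases after the transcript start. The Lhx2 window held CCCNNGGG in 2 overlapping copies that start 1 and 2 bases after the transcript start, the Ldb1 window held it 47 bases before and the Ebf3 window 21 bases before. Among all 32851 windows of this length, 5.29% held TAATTA and 13.7% held CCCNNGGG, against 10% (1 of 10) and 30% (3 of 10) of the member windows. Of 948 odorant receptor windows, 18.6% held TAATTA and 3.06% held CCCNNGGG. Of 11 olfactory Taar windows, 1 held TAATTA (9.09%) and 0 held CCCNNGGG. Of 3 windows of genes in which Ebf sites were first described, 0 held TAATTA and 1 held CCCNNGGG. The 3 member windows with CCCNNGGG had 67.3 to 77% GC. These shares were not matched for GC content, and the 10 member windows come from 6 genes. A match describes letters in the window and was not tested as a binding site.

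The first question was how much RNA of each factor the dissected tissue holds, with all its cell types together. Levels were compared per length, as CPM divided by kilobases of annotated exon. Ebf4 stood highest at 126 ± 5.79 CPM per kilobase (mean ± SD, n = 9 libraries), followed by Ebf2 at 95.9 ± 5.95, Ebf3 at 72.3 ± 11.1, Lhx2 at 59.2 ± 18.6, Ldb1 at 55.3 ± 5.71, Ebf1 at 40.8 ± 4.95 and Emx2 at 32.7 ± 8.47. Ebf4 was above 99% and Emx2 above 93.2% of the genes with an annotated length on this scale. Only Ebf4 and Ebf2, among neighbours in this order, had ranges that did not overlap. Lhx2 exceeded Ldb1 in 3 of 9 libraries, those of replicate number 1. Divided by the longest transcript instead of all exons, Ebf3 (134) came before Ebf2 (128), and the other ranks were kept.

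**Figure D1:**
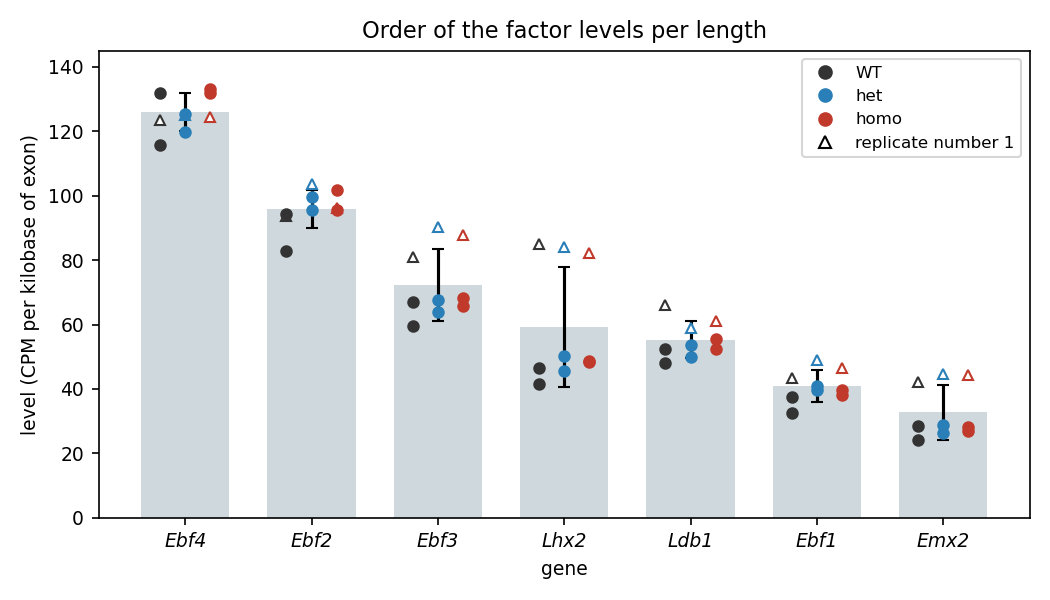
Level of each factor in CPM per kilobase of exon (bars, mean over 9 libraries; error bars, SD), with each library as a point coloured by genotype and replicate number 1 as open triangles. Ebf4 (126) was highest and Emx2 (32.7) lowest, and the open triangles of Lhx2 lie far above its other points.

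Related genes had lower means. Among 23 partners and paralogs (LIM-only and LIM-homeodomain proteins, Ldb2, the Ssbp cofactors of Ldb1, the Ldb1 ubiquitin ligase Rlim, Emx1 and the Ebf-binding zinc finger proteins Zfp423 and Zfp521), 18 had enough counts for the test and Lhx1, Lhx4, Lhx8, Lhx9 and Lmx1a did not. Lmo4, a LIM-only protein that competes for Ldb1, had the highest level at 24.4 CPM per kilobase, and Ssbp2, which protects Ldb1 from degradation, had 23.5. The paralogs were low: Ldb2 had 4.96 and Emx1 0.505 CPM per kilobase, and Lhx3 had 0.0522. All 18 had a mean below that of Emx2 on this scale, although the ranges of Lmo4, Ssbp2 and Ssbp3 over libraries overlapped that of Emx2.

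The second question was whether deleting TAAR enhancer 2 changed the factors. Taar6, a receptor gene beside the enhancer, was examined first as a check of the genotype labels. It had 6.57, 6.62 and 6.27 CPM in the WT libraries, 4.54, 4.42 and 5.23 in the het libraries and 0.635, 0.61 and 0.743 in the homo libraries. The genotypes did not overlap, and the homo level was 0.102 of WT (log2 fold change −3.29 ± 0.179 SE, adjusted p = 3.22e-04, edgeR). Taar3, Taar7a and Taar9 also passed the threshold, 4 of 14 Taar genes in all. Of the 14, 12 were lower in homo than in WT and 10 had an unadjusted p under 0.05 (edgeR).

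Lhx2 had 374, 205 and 183 CPM in WT, 369, 221 and 200 in het and 361, 213 and 214 in homo libraries (replicate numbers 1, 2 and 3). The genotypes overlapped, and the first library of each genotype was well above the other two. Emx2 followed the same pattern, with 127, 85.8 and 72.2 CPM in WT, 134, 78.9 and 86.1 in het and 133, 80.9 and 85 in homo libraries. Ldb1, the cofactor, varied less, with 304, 221 and 242 CPM in WT, 271, 247 and 230 in het and 281, 242 and 255 in homo libraries.

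Among the Ebf genes, Ebf1 had 423, 365 and 316 CPM in WT, 478, 388 and 398 in het and 453, 373 and 386 in homo libraries. Ebf3 had 748, 617 and 549 CPM in WT, 832, 623 and 591 in het and 811, 608 and 629 in homo libraries. For both genes the genotypes overlapped. Ebf4 was the steadiest of the 7, with 400, 375 and 427 CPM in WT, 405, 406 and 388 in het and 403, 431 and 427 in homo libraries.

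Ebf2 had 650, 653 and 574 CPM in WT, 717, 689 and 663 in het and 667, 662 and 705 in homo libraries. It was the only member whose WT libraries lay apart: all het and all homo libraries were above them, by a margin of 662 against 653 CPM in homo. The het and homo libraries overlapped each other. The separation was also seen with library totals (660 against 654) and DESeq2 size factors (660 against 655). Over all 19775 genes tested, 2.97% had homo libraries above WT with no overlap and 2.01% had het libraries above WT, so 1 of 7 members is not a result about the group. Both comparisons use the same WT libraries. Ebf2 did not pass the test, with log2 fold changes of 0.12 ± 0.0964 SE in homo and 0.14 ± 0.0964 in het (unadjusted p = 0.257 and 0.175, edgeR).

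**Figure D2:**
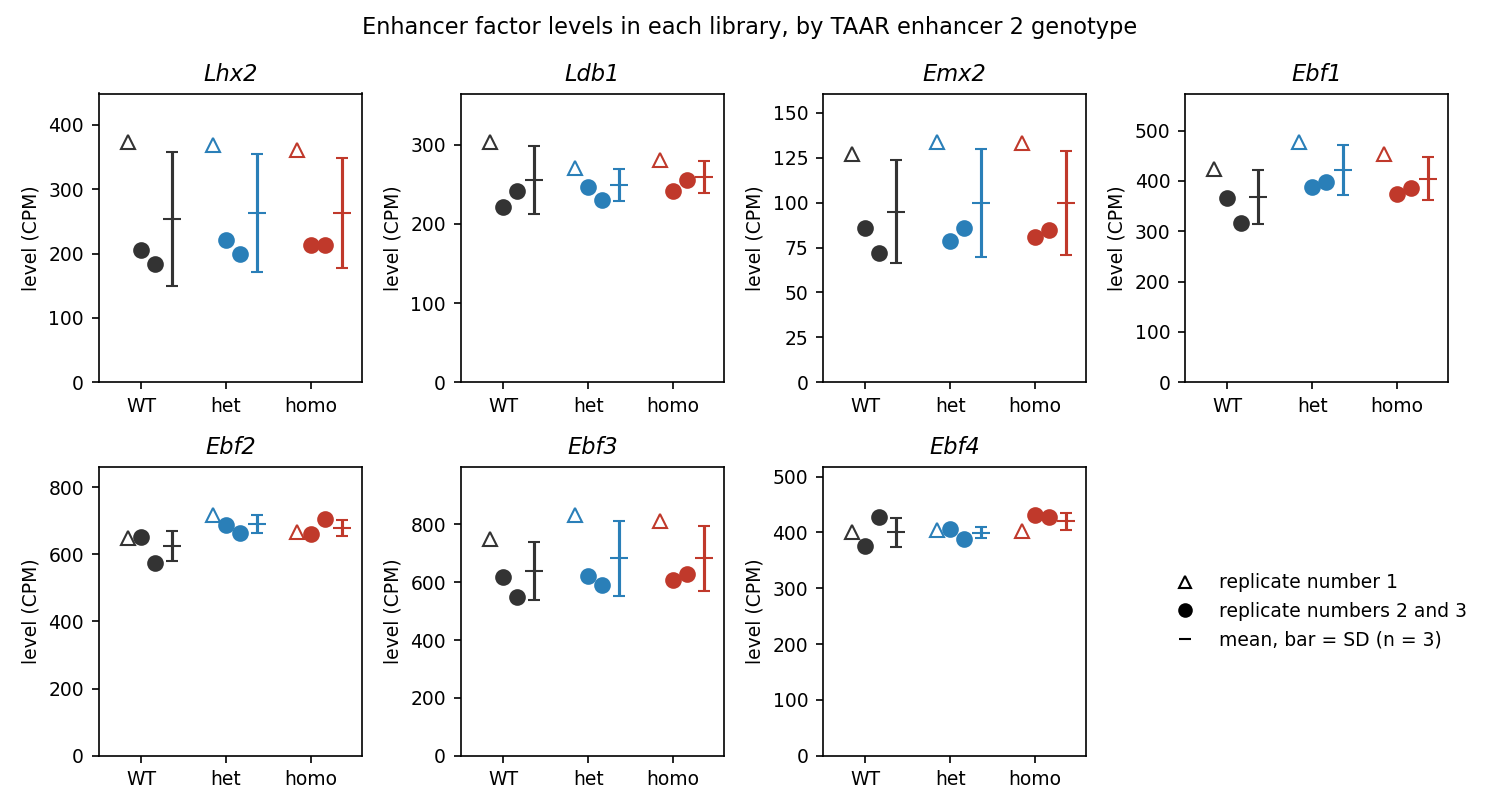
Level (CPM) of each factor in every library by genotype, with replicate number 1 as open triangles, numbers 2 and 3 as filled circles and the mean with SD (n = 3) beside them. Het and homo libraries overlap WT for 6 of the 7 genes, and the triangles lie above the circles for Lhx2, Emx2, Ebf1, Ebf3 and Ldb1.

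No member passed the threshold (adjusted p under 0.05 and a fold over 1.5) between homo and WT, between het and WT or between homo and het in edgeR, DESeq2 or limma-voom. The shares of all genes past it in edgeR were 0.0202%, 0% and 0.00506%. The last of these is 1 gene, and 3 genes with the replicate number as a block. At an unadjusted p under 0.05 the count was also 0 of 7 in each comparison in edgeR, against 3.45%, 1.28% and 0.662% of all genes. The edgeR test for any difference among the genotypes, which 0.00506% of genes passed, gave unadjusted p from 0.339 for Ebf2 to 0.985 for Lhx2.

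All 7 members were higher in homo than in WT, beside 10135 of all 19775 genes tested. Their log2 fold changes ran from 0.02 (Ldb1) to 0.13 (Ebf1). The median was 0.07, beside a median of 0.00408 over all genes. In het, 5 of 7 were higher, from −0.04 (Ldb1) to 0.19 (Ebf1), beside 9424 of all genes. The same member counts (7 of 7 in homo and 5 of 7 in het) were found with a term for replicate number 1. They were also found with the replicate number as a block. In the fit with genotype only, where leaving out a library leaves the numbers unbalanced between genotypes, the counts moved. Without WT replicate 3, the library with the lowest value for 5 of the 7 members, 3 were higher in homo and 3 in het. Without WT replicate 2, 4 were higher in homo, without homo replicate 1, 3 were, and without het replicate 1, 2 were higher in het.

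The interval of each difference gives the range of changes these libraries leave possible. For Lhx2 the 95% interval of homo against WT ran from −0.71 to 0.81 on the log2 scale, a fold of 0.612 to 1.75, and for Emx2 from 0.678 to 1.63. The intervals of the other 5 were narrower and lay within 1.5-fold: Ldb1 0.826 to 1.24, Ebf1 0.883 to 1.36, Ebf2 0.933 to 1.26, Ebf3 0.808 to 1.42 and Ebf4 0.914 to 1.2. The intervals of Lhx2 and Emx2 thus included a change of 1.5-fold. These intervals are not adjusted for the number of genes tested, so they do not give the size of change that could have been called.

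With a term for replicate number 1 in the fit, the interval narrowed to a fold of 0.94 to 1.18 for Lhx2 and 0.939 to 1.17 for Emx2. All 7 intervals then lay between 0.911 and 1.23. The term follows a split that was noticed in these same data, so its intervals and p values are not independent of them. No member had an unadjusted p under 0.05 in homo against WT (6.68% of all genes did), and the lowest was 0.0817 for Ebf1. In het against WT, Ebf1 had a log2 fold change of 0.19 ± 0.0692 SE (unadjusted p = 0.0209, adjusted p = 0.918, edgeR), while 2.98% of all genes had an unadjusted p under 0.05. Ebf1 failed the correction. It was higher than the WT library of the same number in 3 of 3 het libraries, as were Ebf2 and Ebf3. Ebf1 and Ebf2 were also higher in 3 of 3 homo libraries. The share of all genes with this pattern was not computed, so these counts are not a result about the members. Het and homo were set against the same WT libraries, and the labels do not state that same-numbered libraries are pairs.

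**Figure D3:**
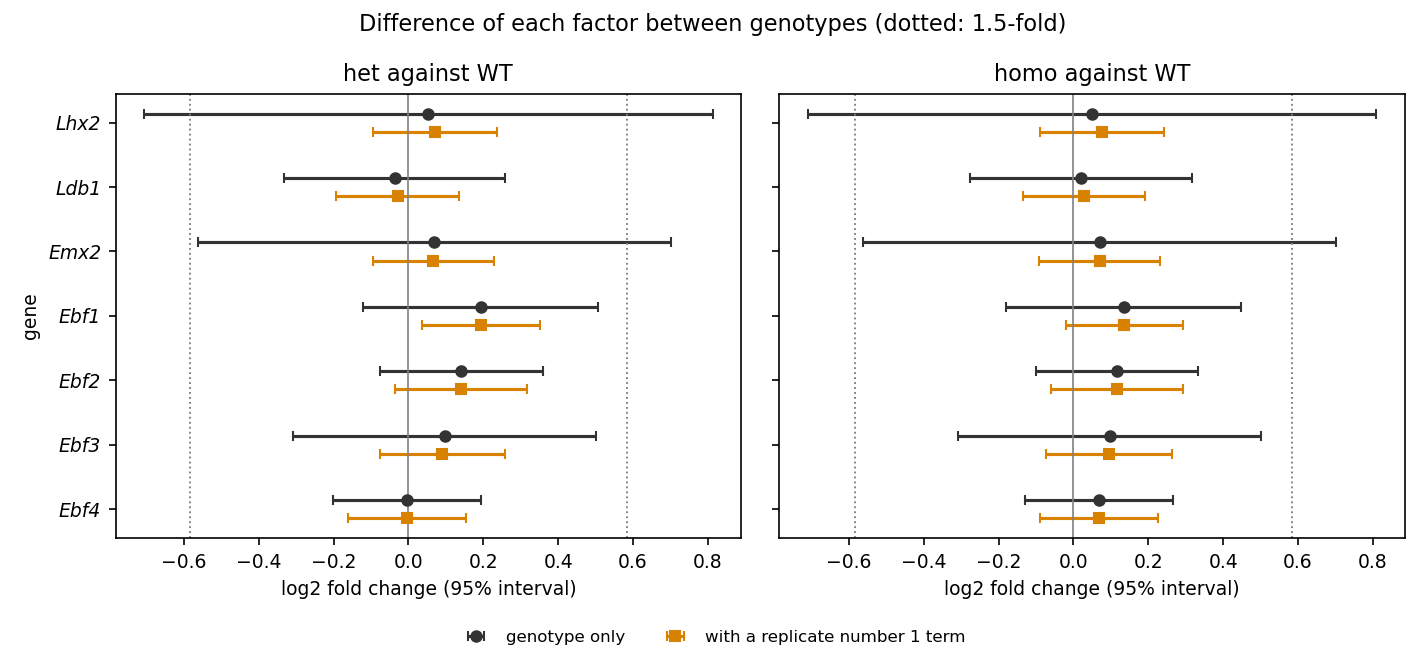
Log2 fold change of each factor in het (left) and homo (right) against WT, with 95% intervals, from the fit with genotype only (circles) and with a term for replicate number 1 (squares); dotted lines mark 1.5-fold. The Lhx2 interval for homo runs from −0.71 to 0.81 with genotype only and from −0.09 to 0.24 with the term.

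Partners and other factors of the lineage gave the same count. Of the 18 partners and paralogs tested, 0 passed in homo against WT and 0 had an unadjusted p under 0.05 in edgeR, with a median log2 fold change of −0.04. The smallest p values were 0.0592 for Lhx3, which was near 0 CPM, and 0.136 for Lhx6. Of the 5 most abundant, Ssbp2 had 0.14, Ssbp3 0.02, Rlim −0.06, Lmo4 −0.07 and Ssbp4 −0.10. Of 18 lineage transcription factors, which direct progenitor and neuron differentiation, 0 passed and 0 had an unadjusted p under 0.05. Atf5, a factor of immature and mature sensory neurons, had a log2 fold change of 0.08, Sox11 0.13, Nfix 0.09, Nfib −0.02, Mef2a −0.0016 and Foxj1, the regulator of motile cilia, −0.26. The 4 genes in which Ebf sites were first described (Omp, Gnal, Adcy3 and Cnga2, parts of the mature neuron and its odorant signalling) had log2 fold changes of 0.05, 0.09, 0.09 and 0.08, and 0 of 4 passed. DESeq2 and limma-voom also called 0 of the partners and 0 of the lineage factors in homo against WT. Of 1088 odorant receptor genes, the other targets of these factors, 0 passed in edgeR. An unadjusted p under 0.05 (edgeR) was seen for 37 of them, beside 682 of all 19775 genes (3.45%). Their median log2 fold change was 0.21, against 0.00408 over all genes. Of the 1088, 897 were higher, against 10135 of all 19775 genes.

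The third observation concerns the replicate number. In all 3 genotypes the library numbered 1 stood apart for most members, and the labels do not say what the number marks. This split was noticed in these data, so its values are given with no test. Lhx2 was at 361 to 374 CPM in the libraries numbered 1 and at 183 to 221 in the other 6, a ratio of 1.78 and a log2 difference of 0.84 ± 0.0632 SE. Emx2 was at 127 to 134 against 72.2 to 86.1 CPM (0.69 ± 0.0612), Ebf3 at 748 to 832 against 549 to 629 (0.40 ± 0.0639), Ebf1 at 423 to 478 against 316 to 398 (0.28 ± 0.0599) and Ldb1 at 271 to 304 against 221 to 255 (0.25 ± 0.0624). Ebf2 (0.05 ± 0.0672) and Ebf4 (−0.02 ± 0.0602) overlapped.

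The ratio of number 1 to the mean of numbers 2 and 3 was computed within each genotype. For Emx2 it was 1.61 in WT, 1.62 in het and 1.61 in homo, for Lhx2 1.93, 1.75 and 1.69 and for Ebf3 1.28, 1.37 and 1.31. For Ebf1 it was 1.24, 1.22 and 1.19. Ldb1 had a higher ratio in WT (1.31) than in het (1.14) and homo (1.13). For Ebf2 it was 1.06, 1.06 and 0.977 and for Ebf4 0.998, 1.02 and 0.94. Thus 5 of 7 members were above all other libraries in number 1 and 0 were below. Over all genes tested, 17.8% were above and 16.2% below, and 26.5% of the 2750 genes with a mean CPM at least that of Emx2 were above. Across the 9 libraries Lhx2 varied more than 96.6% of these 2750 genes and Emx2 more than 94.3%, whereas Ebf4 varied more than 8.65%. Within the other 6 libraries the SD of log2 CPM was between 0.0723 (Ebf3) and 0.119 (Ebf1) for all 7.

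Because of this, the proportions among the factors differed between the 2 sets of libraries. There were 1.23 to 1.36 Lhx2 reads for each Ldb1 read in the libraries numbered 1 and 0.754 to 0.929 in the others. The Lhx2 to Ebf2 ratio was 0.515 to 0.575 against 0.301 to 0.322, and the Ebf3 to Ebf2 ratio 1.15 to 1.21 against 0.891 to 0.956. The 2 homeodomain genes were both higher in number 1, and Emx2 reads were 0.34 to 0.37 of Lhx2 reads against 0.356 to 0.432. The coefficient of variation of this ratio over 9 libraries was 7.77%. That of the Ebf1 to Ebf2 ratio (0.651 to 0.679 against 0.547 to 0.6) was 8.93%, so a low value is not particular to the homeodomain genes. These ratios are of read counts and are compared between libraries only.

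Other gene groups moved with the number. Of the 18 lineage transcription factors, 16 were above all other libraries in number 1, with a median log2 difference of 0.60 (−0.03 over all genes). Neurog1, which commits progenitors to the neuronal fate, had 1.66 and Nfix 0.97. Nfib (−0.19) was below and Mef2a overlapped. Of the 18 partners 8 were above, among them Lmo4 (0.78) and Ssbp4 (0.73), and Rlim (−0.45) was the 1 below. Of the 4 Ebf site genes 0 were above and 0 below, with differences from −0.08 to −0.01.

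Marker lists of the cell types in the tissue were summed beside these values. Immature neuron markers had 1540 to 1600 CPM in number 1 and 982 to 1330 in the others (4 of 5 above all others), progenitor markers 461 to 508 against 256 to 390 (5 of 5) and horizontal basal cell markers 155 to 245 against 78.9 to 109 (3 of 4). Mature neuron markers overlapped, at 3920 to 4100 against 3810 to 4520 CPM (Gng13 above all others with a log2 difference of 1.32, Stoml3 and Cnga4 below), as did sustentacular markers, at 2560 to 2660 against 2420 to 3260. Markers of respiratory ciliated cells (433 to 482 against 213 to 324) and of fibroblasts and bone (11200 to 12200 against 6790 to 8460) had higher sums, with 3 of 4 and 4 of 5 genes above all other libraries (Tekt1 was below and Dcn overlapped), and B cell markers (9.7 to 13 against 19.2 to 44.2) and fat cell markers (2.79 to 3.34 against 5.26 to 8.7, 2 of 4 genes tested) were lower. Glial markers (225 to 238 against 209 to 292) and the 1 red blood cell marker tested (20.8 to 24 against 14.7 to 27.6) overlapped in sum, although the glial gene Sox10 was above all other libraries (log2 difference 0.60). Of 1088 odorant receptor genes, 178 were below (16.4%, near the 16.2% of all genes) and 27 above (2.48%, against 17.8%). The part of these cell types in the member differences was not tested.

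**Figure D4:**
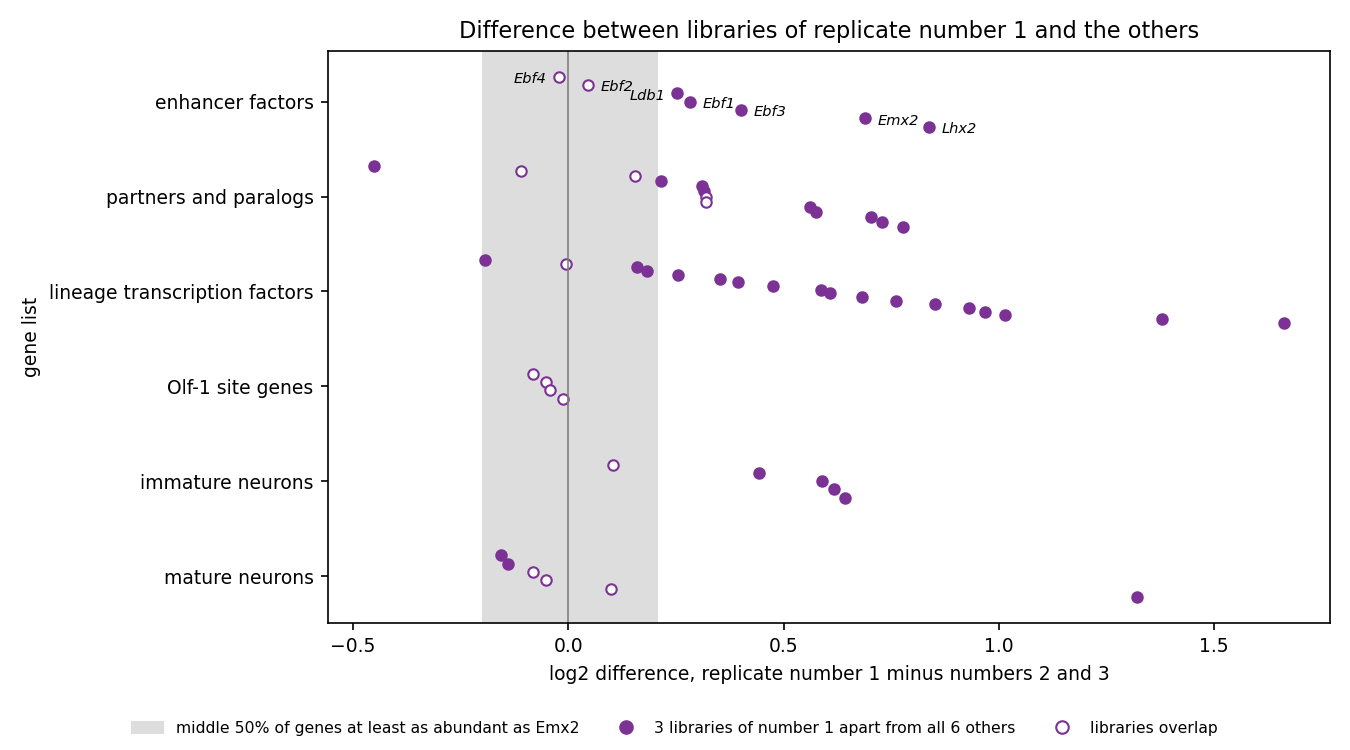
Log2 difference between libraries of replicate number 1 and numbers 2 and 3 for each gene of 6 lists with a mean of at least 1 CPM; filled points are genes whose 3 libraries of number 1 lie apart from all 6 others, and the grey band holds the middle 50% of genes at least as abundant as Emx2. Lhx2 (0.84), Emx2 (0.69), Ebf3 (0.40), Ebf1 (0.28) and Ldb1 (0.25) lie to the right of the band, with most lineage factors and immature neuron markers. Ebf2 (0.05) and Ebf4 (−0.02) lie within it.

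Depth and base composition moved with the number as well. The libraries numbered 1 had 20527992 to 22292647 counted reads and the other 6 had 24905135 to 32262005. Across 2670 genes at least as abundant as Emx2, the median log2 difference rose over 10 bins of GC content from −0.24 (32.9 to 41% GC) to 0.27 (57 to 67.1%). Lhx2 (58.5% GC) was above 92.5% of the genes in its bin, Emx2 (52.2%) above 98.5%, Ebf1 (43.1%) above 95.5% and Ebf3 (49.4%) above 91.4%. Ldb1 (57.9%) was near the middle of its bin, above 45.7%, Ebf2 (45%) was above 71.5% and Ebf4 (62.2%) above 14.6%. Lhx2, Ldb1 and Ebf4 share a GC bin and differed by 0.84, 0.25 and −0.02. The part of depth and GC content in these differences was not tested.

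**Figure D5:**
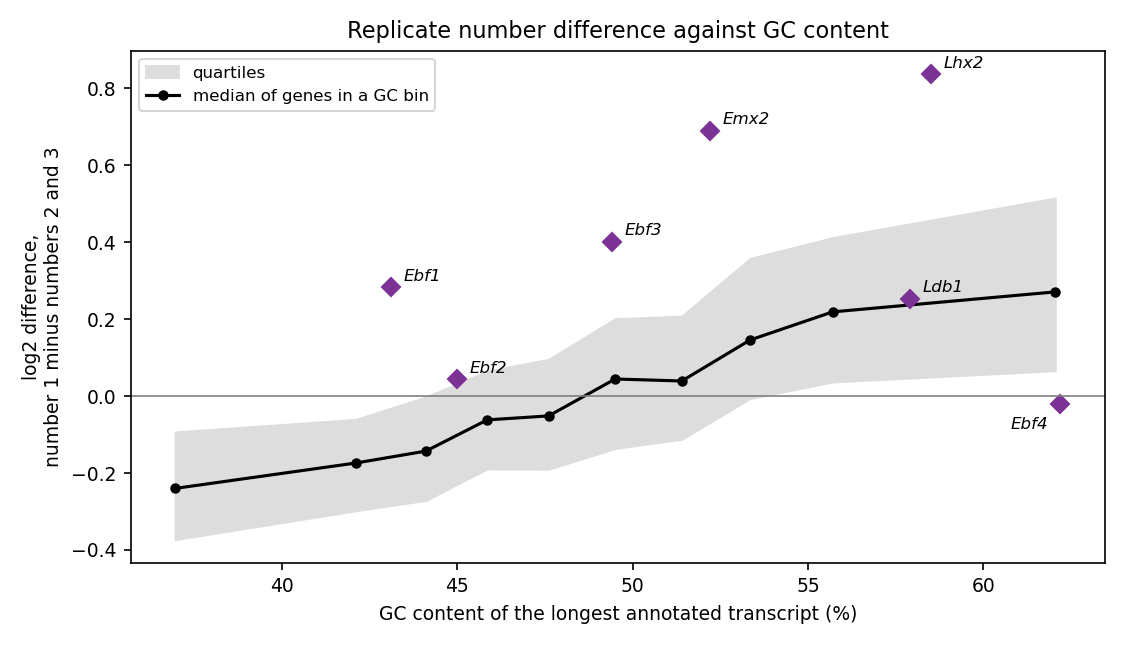
Log2 difference between libraries of replicate number 1 and the others against GC content of the longest transcript; the line is the median and the band the quartiles of genes in each of 10 GC bins, and diamonds are the factors. The median rises from −0.24 to 0.27, and Lhx2, Emx2, Ebf1 and Ebf3 lie above the band.

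The genes whose level over the 9 libraries was most like that of each factor were found by Pearson's r of log2(CPM + 1) among 11514 genes, as a description with no test. The split by replicate number enters these values for 5 of the 7 members. For Lhx2 these were Dbn1 (0.996), an actin-binding protein of growing neurites, and Ppl (0.994), and for Emx2 Rab10 (0.989) and Sdc2 (0.988). Ebf3 was most like Cux1 (0.989) and Epb4.1 (0.986), Ebf1 like Adgrl3 (0.988) and Tmem57 (0.979) and Ldb1 like Mapk7 (0.979) and Mrps26 (0.973). Ebf2 was most like Sh3gl2 (0.951) and Per2 (0.947), and Ebf4 like Flad1 (0.953) and Smg5 (0.951). Dbn1 had 168 to 175 CPM in number 1 and 87.2 to 106 in the others, a split like that of Lhx2.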

How the data were processed

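Whole MOE RNA was made into polyA-selected, strand-specific libraries. Per the labels, the authors used Trimmomatic 0.36, HISAT2 2.1.0 and featureCounts (Subread 1.6.2) on GRCm38 (mm10). The annotation release and strand setting are not given in the sources used here. The deposited raw counts are whole reads per gene. The deposited normalized values, a signal, are those counts divided by 1 DESeq2 (1.20.0) size factor per library, by the authors.

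Raw counts were fitted with edgeR 4.0.16 (R 4.3.3): TMM scaling, 19775 genes with at least 10 counts summed over 9 libraries, quasi-likelihood test, Benjamini-Hochberg adjustment over all of them, and calls at adjusted p under 0.05 and fold over 1.5. Fold changes carry SE and 95% intervals from the fit. DESeq2 1.42.0 and limma 3.58.1 were alternatives. Scripts were tested on simulated data. Depth was 20527992 to 32262005 reads per library, where 3 counts equal 0.093 to 0.146 CPM. The study gives 3 mice per genotype. The labels do not tie libraries to animals.

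The members and lists were chosen with earlier results of these data known. Named genes were the members, Taar6, genes past the threshold, the 5 most abundant and the 2 with the smallest p of each list, and the 2 genes most like each member. Of receptor genes only those past the threshold are named. Ldb2, Emx1, Neurog1, Gng13, Stoml3 and Cnga4 were added after their values were seen. Gene lengths, positions and GC content came from GENCODE M21.

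The replicate numbers were checked as pairs by correlating deviations from the genotype means over 17378 genes. Same-numbered libraries correlated at 0.671, 0.448 and 0.559 between het and WT and at 0.806, 0.369 and 0.223 between homo and het, but at 0.533, 0.326 and −0.0746 between homo and WT, where homo 3 was closest to WT 2 (0.527). In homo against het, homo 2 was closer to het 3 (0.514) and homo 3 to het 2 (0.561) than to their own numbers. Every same-numbered pair was above 0.1 in het against WT and homo against het, but not in homo against WT. That cut-off does not establish pairs, because homo 2 and homo 3 were closer to het libraries of another number. The labels do not state pairs.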

Additional observations from a re-analysis of the deposited data

How the results depend on the processing

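No member was called in any comparison, and no partner or lineage factor in homo against WT, under any alternative: other scalings (DESeq2 size factors, library totals), no filter or filterByExpr, DESeq2, limma-voom, only the 2 genotypes, a term for number 1, the replicate block, leaving out each library, and the newer quasi-likelihood estimate, which was chosen after seeing the data. Of 573 alternative values over 34 results, 527 were labelled the same, 26 reversed and 20 moved. For a count, the same meant equal or within 1.5-fold of the main value. For a fold change it meant the same direction and side of the threshold. No member was called under any setting, so only a change of direction could alter this label, and the size could move freely. For a number 1 difference it meant a shift under the SD of log2 CPM in the other libraries. Leaving out 1 library, the log2 fold change of homo against WT ran from −0.25 to 0.45 for Lhx2, from −0.0783 to 0.18 for Ldb1, from −0.20 to 0.35 for Emx2 and from −0.0449 to 0.24 for Ebf3. That of het against WT ran from −0.27 to 0.45 for Lhx2, from −0.13 to 0.12 for Ldb1, from −0.20 to 0.35 for Emx2, from −0.0712 to 0.24 for Ebf3 and from −0.0475 to 0.0366 for Ebf4. The members higher ranged from 3 to 7 in homo and from 2 to 7 in het. With library totals, Ebf4 in het was 0.0204. The cause was not tested.

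With the replicate block, 0 members were called in each comparison, and Ebf1 in het against WT was 0.20 (unadjusted p = 0.0275, adjusted p = 0.946, edgeR). Genes called in homo against WT were 4, but 6 with DESeq2, 3 with the block, 1 with limma-voom or only the 2 genotypes and 1 to 4 without 1 library. In homo against het the count was 1, but 4 with library totals or no filter, 3 with the block or the number 1 term, 2 with the newer estimate and 5 with DESeq2. The 3 libraries per genotype limit what can be detected.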
